A study of Mus musculus with 474 samples.

Results

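Mitochondrial biogenesis regulators were examined as a set of 7 genes, taken by symbol among the 20612 genes of the counts table. The set holds the coactivators Ppargc1a, Ppargc1b and Perm1, the nuclear receptor Esrra, the transcription factors Nrf1 and Gabpa, and the mitochondrial DNA-binding factor Tfam. All 7 passed the filter on low counts that left 18823 genes. Their levels were described by sex and outbred generation, then their relations to each other, to Cox5a and to Myh7. Cox5a encodes a nuclear subunit of cytochrome c oxidase, complex IV of the respiratory chain. Myh7 encodes the slow myosin heavy chain of type I muscle fibres.

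RNA was measured by sequencing of polyadenylated transcripts in skeletal muscle, gastrocnemius in the study's methods, of Diversity Outbred mice. This outbred stock descends from inbred founder strains, so no animal shares a genotype with another and none is a replicate of a line. Females and males all received a high-fat, high-sugar diet, and no library came from a mouse on another diet. The number in each title (17, 18, 19, 21 or 23) was read as the generation, which is an assumption, and each of the 10 sex-by-generation groups held 45 to 50 animals. Each animal gave 1 library, so the spread within a group holds genetic and technical differences together. In whole muscle, fewer cells of a type and less RNA per cell cannot be told apart.

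Mitochondrial proteins are encoded both in the nucleus and in the mitochondrial genome, and the regulators studied here link the expression of these genomes. PGC-1alpha and PGC-1beta, the products of Ppargc1a and Ppargc1b, bind to transcription factors such as ERRalpha (Esrra), NRF1 and GABPA (the DNA-binding part of NRF2) and raise the transcription of respiratory chain genes. TFAM packages mitochondrial DNA and is needed to transcribe it, and PERM1 is a muscle-enriched protein induced by PGC-1 and ERR that acts with them on oxidative genes.

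Total expected counts per library ran from 35.9 M to 165.7 M (M, the prefix mega), with a median of 79.3 M. The 10 skeletal muscle markers summed to between 107410 and 218400 CPM in every library, so the labelled tissue was present throughout. CPM are counts scaled to an effective library total, the sum over genes tested times edgeR's TMM factor (0.871 to 1.288). In 5 libraries, labelled F_17, F_18, F_21, M_18 and M_19 (sex and generation), the transcripts of the sex chromosomes did not plainly match the labelled sex: 3 had almost no Xist and no Y-linked counts, and 2 had those of the labelled sex with a lesser amount of the other's. Without them the same 6 members were called between the sexes, with Ppargc1a at 0.21 in place of 0.23 on the log2 scale. The library numbers fell into 5 blocks of up to 96, whose meaning the labels do not state. Mitochondrially encoded RNA made up 12.1% of counts on average in block 1 and 9.94% to 10.6% in the other blocks.

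Start-site windows show which of these genes carry binding motifs of the members themselves. Each RefSeq window (GRCm38.p6) runs from 250 bases before to 50 after the start, and 6 of the 7 genes have one here. Motifs were searched on both strands. The NRF1 motif was in 4.60% of all 32851 windows, the ETS motif CCGGAAGT bound by GABPA in 3.89%, the full ERR motif TCAAGGTCA in 0.423%, and its core AAGGTCA, which the full motif contains, in 4.72%. Of the members, Tfam held the ETS motif and Perm1 the ERR core, while the windows of Ppargc1a, Esrra, Nrf1 and Gabpa held none of these letters. The windows of Tfam (chr10:71237995-71238294, minus strand), Perm1 (chr4:156215677-156215976, plus strand) and Atp5g3 (chr2:73911277-73911576, minus strand) are shown because they place motifs of the members in a member or in a close relative of Esrra in expression. Capitals mark the motif letters, read on the strand of the gene.
Tfam: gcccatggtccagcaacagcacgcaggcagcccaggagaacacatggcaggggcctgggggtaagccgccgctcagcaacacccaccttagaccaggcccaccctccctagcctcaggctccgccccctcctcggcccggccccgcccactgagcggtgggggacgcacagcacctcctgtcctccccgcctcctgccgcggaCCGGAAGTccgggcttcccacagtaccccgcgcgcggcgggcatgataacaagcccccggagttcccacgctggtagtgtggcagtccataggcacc
Perm1: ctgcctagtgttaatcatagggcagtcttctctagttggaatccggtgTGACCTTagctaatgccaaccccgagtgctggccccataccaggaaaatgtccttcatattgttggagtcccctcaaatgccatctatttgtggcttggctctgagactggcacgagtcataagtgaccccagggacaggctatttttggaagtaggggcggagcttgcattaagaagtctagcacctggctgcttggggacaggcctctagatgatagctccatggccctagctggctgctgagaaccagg
Atp5g3: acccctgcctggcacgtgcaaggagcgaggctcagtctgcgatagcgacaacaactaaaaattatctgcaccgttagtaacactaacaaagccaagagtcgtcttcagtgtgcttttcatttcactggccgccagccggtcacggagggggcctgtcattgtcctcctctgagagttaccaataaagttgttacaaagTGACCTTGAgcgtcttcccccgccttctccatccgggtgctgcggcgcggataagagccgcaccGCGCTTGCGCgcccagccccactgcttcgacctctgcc
The ETS letters of Tfam begin 47 bases before the start. The capitals of Perm1 are the ERR core on the opposite strand. Atp5g3, which encodes the membrane ring subunit c of ATP synthase, holds the full ERR motif on the opposite strand before its start and the NRF1 motif, also on the opposite strand, just after it. A match of letters is a description and was not tested for binding.

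The genes lie on 7 chromosomes of the mouse genome GRCm38. Ppargc1a spans chr5:51454250-51567726 and Ppargc1b chr18:61298136-61400431, both on the minus strand, and Perm1 spans chr4:156215868-156221307 on the plus strand. Esrra lies at chr19:6910977-6921813 on the minus strand, and its exons overlap exons of Trmt112 on the other strand. Nrf1 lies at chr6:30047988-30153458 on the plus strand. Gabpa lies at chr16:84834925-84863779 on the plus strand, and its exons overlap those of Atp5j, a far more abundant ATP synthase gene at 213.5 CPM. Tfam lies at chr10:71225464-71238280 on the minus strand. Use of strand in the counting was not stated, so the counts of Esrra and Gabpa are less certain than those of the other members, although their scores had r of only 0.145 with Trmt112 and -0.172 with Atp5j.

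Per kilobase of exon, Perm1 was by far the most abundant member. Its level averaged 67.3 ± 12.7 CPM per kb (SD over all libraries). Ppargc1a at 11.6 ± 6.27, Esrra at 10.6 ± 1.60 and Tfam at 9.09 ± 0.966 CPM per kb stood close together, within the spread of Ppargc1a. Gabpa followed at 6.61 ± 0.982 CPM per kb. Ppargc1b at 1.84 ± 0.506 and Nrf1 at 0.914 ± 0.0892 CPM per kb were the lowest. Ppargc1b was thus the scarcer PGC-1 gene by level in this muscle.

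**Figure D1:**
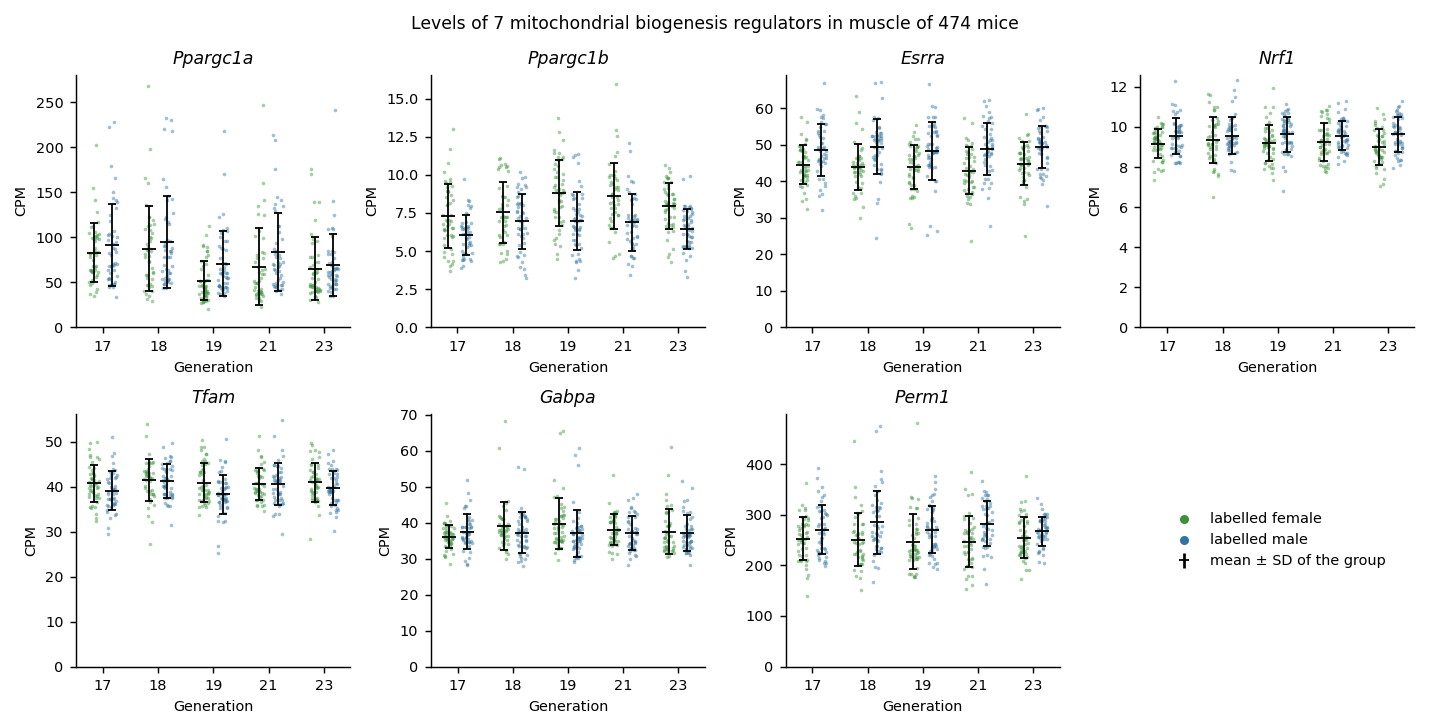
Level of each of the 7 genes in CPM on a linear axis from 0, by generation, with 1 point per library (green for labelled females, blue for labelled males) and the mean and SD of each group. Ppargc1a spreads widest for its level, from 19.9 to 268.3 CPM, while Nrf1 stays between 6.51 and 12.3 CPM.

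Ppargc1a, the inducible PGC-1 coactivator, varied most between animals. Its highest library was 13.5 times its lowest, and 47 libraries were at least 2 times its median of 64.1 CPM. After sex, generation and block its residual SD on the variance-stabilised scale (VST, close to log2) was 0.617, at the 96.7th percentile of all genes tested. The other extreme was Nrf1, whose highest library was 1.89 times its lowest and whose residual SD was at the 3.36th percentile. Tfam was also steady at the 12.9th percentile, Esrra and Gabpa lay at the 28.4th and 32.1st, and Perm1 and Ppargc1b at the 71.5th and 79.5th. Poisson counting error at the median count, a lower bound because a fragment can count more than once, was 0.700% for Perm1 and at most 4.19% (Ppargc1b). These lay below the coefficient of variation of every member (9.77% for Nrf1, 54.2% for Ppargc1a).

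In females, Ppargc1a ran from 19.9 CPM through a median of 60.5 to 268.3 CPM. In males it ran from 33.3 through 67.6 to 241.6 CPM. The sexes overlapped over nearly the whole range, with the lowest libraries female. Ppargc1a was higher in males by 0.23 on the log2 scale (SE 0.0610, adjusted p = 0.000653, edgeR's quasi-likelihood test with Benjamini-Hochberg adjustment over all genes). This difference was called in block 1 (0.46, adjusted p = 0.00683 by edgeR), and in the other blocks alone it was 0.03 to 0.27 and was not called. In all libraries without block 1 it was 0.16 (edgeR adjusted p = 0.039), and with block as a covariate 0.22 (0.00108).

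Ppargc1b, the other PGC-1 coactivator, went the opposite way. In females it ran from 3.71 through 8.07 to 15.95 CPM, and in males from 3.24 through 6.58 to 12.1 CPM. Ppargc1b was lower in males by 0.27 (log2 difference -0.27, SE 0.0338, edgeR adjusted p = 9.82e-14). It was lower in males in all 5 blocks, by -0.43 to -0.07, with block 5 not called.

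Perm1 ran from 139.03 through 244.98 to 482.03 CPM in females and from 162.7 through 271.5 to 474.9 CPM in males. It was higher in males by 0.14 (SE 0.0238, edgeR adjusted p = 1.13e-07). Within block 2 the difference was -0.01, and in the other blocks it was 0.10 to 0.24, with block 4 not called either (edgeR adjusted p = 0.0922).

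Esrra, which encodes the orphan receptor ERRalpha, ran from 23.7 through 44.2 to 63.4 CPM in females and from 24.5 through 49.2 to 67.1 CPM in males. It was higher in males by 0.15 (SE 0.0195, edgeR adjusted p = 3.45e-13), and by 0.13 to 0.21 within each block, where block 1 was not called (edgeR adjusted p = 0.0709). The means of its 5 female groups (42.9 to 44.8 CPM) all lay below those of its 5 male groups (48.3 to 49.5 CPM). Even so, neighbours across that gap, females of generation 23 and males of generation 19, differed by only 0.506 SD.

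The remaining 3 members differed little by sex. Nrf1 had medians of 9.17 CPM in females and 9.55 CPM in males, a difference of 0.06 (SE 0.0128, edgeR adjusted p = 1.03e-05). With scaling by total count alone it was 0.03 and was not called (edgeR adjusted p = 0.0911). Tfam had medians of 40.5 CPM in females and 39.5 CPM in males and was lower in males, at -0.04 (SE 0.0140, edgeR adjusted p = 0.00456), with no single block called. Gabpa had medians of 37.1 and 36.5 CPM and was not called, at -0.03 (SE 0.0185, edgeR adjusted p = 0.109). It was called at -0.07 with total count alone (edgeR adjusted p = 0.00105), at -0.04 with block as a covariate (0.0234) and at -0.04 by limma (0.0447).

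In all, 6 of the 7 members differed between the sexes, where 55% of all genes tested did. Of these, 4 were higher in males and 2 lower, against 24.4% higher and 30.6% lower over all genes. With total count alone the whole-table calls shifted from 4595 higher and 5767 lower in males to 3330 higher and 7469 lower. Markers of other tissue components also moved with sex. The summed level of 9 slow-fibre genes had a median of 3688 CPM in females and 2544 CPM in males, and the 9 adipocyte markers of 1886 and 1270 CPM. With scores of both lists as covariates the same 6 members were called by edgeR, where 46.8% of all genes were, with Ppargc1a at 0.22, Ppargc1b at -0.26, Esrra at 0.15, Nrf1 at 0.06 and Tfam at -0.05. Perm1 went from 0.14 to 0.18 (edgeR adjusted p = 3.95e-10).

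Both PGC-1 genes differed between generations, again in different ways. Ppargc1a averaged 87.2 ± 39.4 CPM (SD, n = 94) in generation 17 and 91.1 ± 48.9 (n = 93) in generation 18. It averaged 61.3 ± 31.01 (n = 99), 75.3 ± 43.6 (n = 93) and 67.4 ± 34.7 (n = 95) in generations 19, 21 and 23. The first pair of generations was thus the higher. Ppargc1b averaged 6.68 ± 1.85 CPM in generation 17 and 7.24 ± 1.92 in generation 18, then 7.89 ± 2.23, 7.74 ± 2.21 and 7.20 ± 1.63. Its lowest generation was 17 and its highest 19, where Ppargc1a was lowest. The range of fitted generation effects was 0.58 on the log2 scale for Ppargc1a (edgeR adjusted p = 6.90e-08) and 0.24 for Ppargc1b (0.00217).

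Only these 2 of the 7 members were called by generation, where 7.56% of all genes tested were. The other 5 had adjusted p of 0.225 to 0.931 in the same edgeR test. Within single blocks neither gene was called. The range of Ppargc1a was 0.43 to 0.76 there, but a range cannot be negative, so its size alone shows no generation effect. In females alone both were called, and in males alone Ppargc1a (0.44, edgeR adjusted p = 0.0412) but not Ppargc1b (0.21, 0.281). The interaction test of edgeR called no member whose sex difference varied with generation (0 of 7, with 0.531% of all genes called), none at an unadjusted p under 0.05 and 0 by limma, and Gabpa had the lowest unadjusted p at 0.0843.

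Ordering the 10 groups by mean level put Ppargc1a lowest in females of generation 19, at 51.7 ± 21.9 CPM (SD, n = 49), and highest in males of generation 18, at 94.6 ± 50.98 CPM (n = 48). Ppargc1b was lowest in males of generation 17, at 6.05 ± 1.29 CPM (n = 46), and highest in females of generation 19, at 8.82 ± 2.16 CPM (n = 49). Neighbours in the order never differed beyond their spread for any member: the widest step was the one of Esrra between the sexes, and for Ppargc1a it was 0.457 SD.

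Esrra and Gabpa differed between library blocks, in opposite directions. Esrra averaged 39.7 ± 7.03 CPM (SD, n = 96) in block 1 and 47.7 to 49.5 CPM in blocks 2 to 5. Gabpa averaged 40.9 ± 7.95 CPM in block 1 and 35.2 to 37.98 CPM elsewhere. Cox5a followed Esrra, with 178.5 ± 21.7 CPM in block 1 and 208.5 to 235.8 CPM elsewhere. Block called 4 of the 7 members where it called 47.4% of all genes tested: Esrra (range 0.32, edgeR adjusted p = 2.69e-32), Gabpa (0.22, 8.19e-13), Tfam (0.08, 0.0116) and Perm1 (0.12, 0.0448). By limma only Esrra and Gabpa were called. Block took 18.2% of the variance of Esrra and 11.9% of that of Gabpa, against 0.631% to 1.96% for the other members and a median of 1.67% over all genes. Relations between members and of members with Cox5a are therefore given within blocks, and the counts in gene lists are given without block 1 where that moved them by over 1.5 times or turned them.

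The members did not move as 1 group. Over all libraries, after sex and generation, 9 of the 21 pairs were related, 5 positively and 4 negatively (permutation test of Pearson's r, 100000 resamples, adjusted over 35 relations). The floor of these permutation p-values, 1e-05, is the smallest they can give and became 4.37e-05 after adjustment. All of these r lay between -0.294 and 0.524.

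Esrra and Perm1 were the closest pair, with r = 0.524 (permutation adjusted p = 4.37e-05, Spearman rho 0.488, and r = 0.505 without the 2 farthest libraries). The relation held at 0.474 to 0.618 within each of the 5 blocks. Ppargc1b went with both of them, at r = 0.256 with Perm1 (permutation adjusted p = 4.37e-05, rho 0.243, 0.260 without the 2 farthest) and r = 0.212 with Esrra (7.78e-05, rho 0.185, 0.211). Within blocks those values were 0.0241 to 0.415 and 0.114 to 0.324, strongest in block 1 for both.

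The PGC-1 genes opposed each other. Ppargc1a and Ppargc1b had r = -0.269 (permutation adjusted p = 4.37e-05, rho -0.257, -0.263 without the 2 farthest), and -0.410 to -0.0855 within blocks. Ppargc1a was positively related to Perm1 alone among the members, at r = 0.180 (permutation adjusted p = 0.000323, rho 0.179, 0.170), with 0.0017 in block 1 and 0.136 to 0.385 in the others. Its r with its known partner Esrra was -0.0544 (permutation adjusted p = 0.395), with Nrf1 -0.0146 and with Tfam -0.0408.

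Tfam and Gabpa were positively related, with r = 0.283 (permutation adjusted p = 4.37e-05, rho 0.246, 0.298 without the 2 farthest) and 0.122 to 0.441 within blocks. Nrf1 was negatively related to both: r = -0.204 with Gabpa (permutation adjusted p = 0.000105, rho -0.183, -0.183) and -0.183 with Tfam (0.000323, rho -0.180, -0.162). Within blocks Nrf1 had -0.356 to 0.0403 with Gabpa and -0.279 to -0.0758 with Tfam. The pair of factors known to act on the Tfam promoter, Nrf1 and Gabpa, thus had opposite signs with Tfam.

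The negative relation of Esrra and Gabpa rested on block 1. Over all libraries it was r = -0.294 (permutation adjusted p = 4.37e-05, rho -0.112, -0.255 without the 2 farthest). Within block 1 it was -0.620, and within blocks 2 to 5 it was 0.0503 to 0.228. Without block 1 it was 0.0480 (permutation adjusted p = 0.470). With block as a covariate, block 1 included, it was -0.172 (permutation adjusted p = 0.0007).

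**Figure D2:**
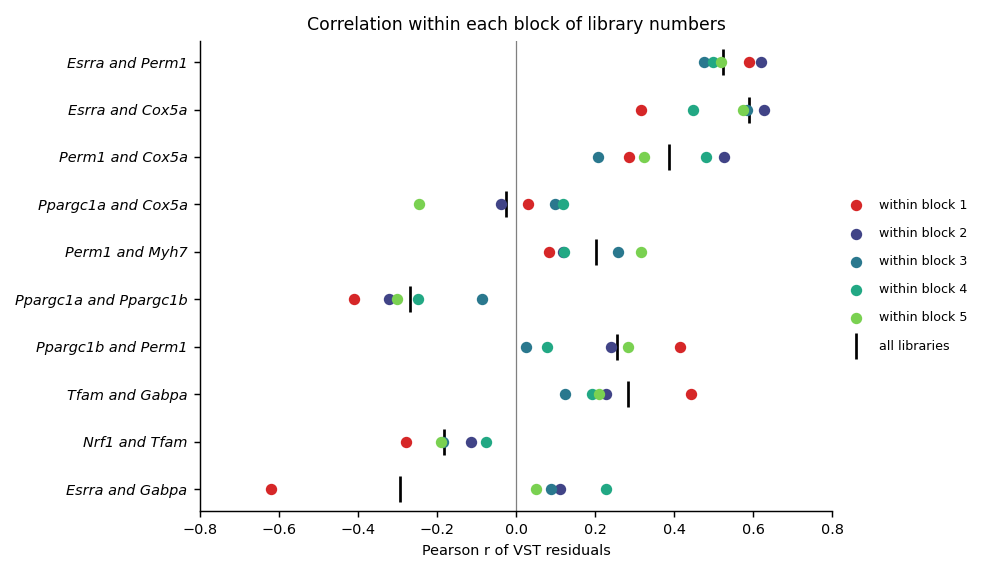
Pearson r of VST residuals for 10 relations (rows), with 1 coloured point for each of the 5 library blocks and a black bar for all libraries. The points of Esrra and Perm1 lie together at 0.474 to 0.618, whereas for Esrra and Gabpa block 1 lies at -0.620 and the other blocks at 0.0503 to 0.228.

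**Figure D3:**
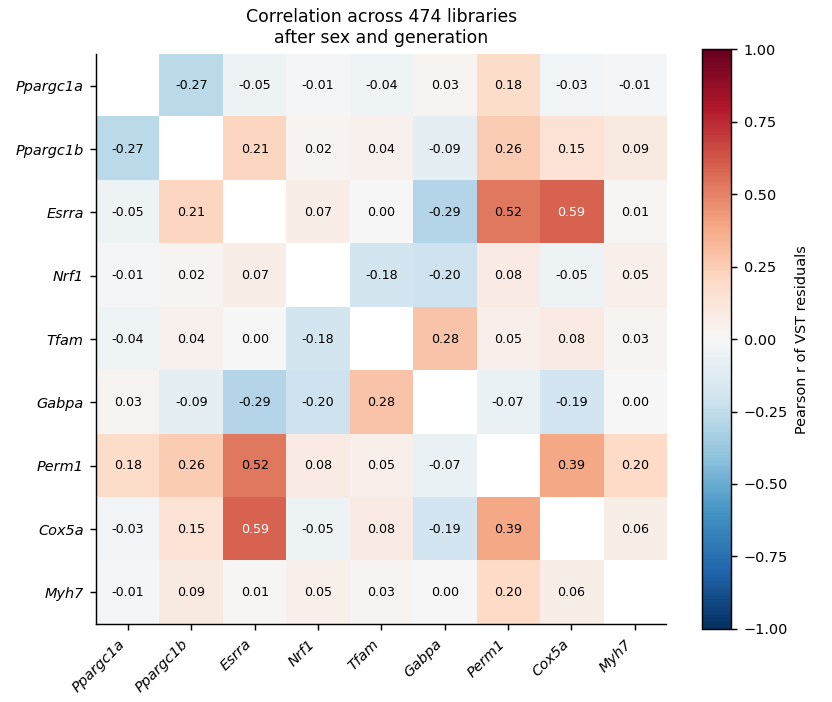
Pearson r between the 7 genes, Cox5a and Myh7 on VST residuals after sex and generation over all libraries, as a colour scale from negative to positive with the value in each cell. Esrra with Cox5a (0.589) and Esrra with Perm1 (0.524) stand highest among the members' relations.

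These counts were set against the share of all genes related to each member. Perm1 was positively related to 3 of the 6 other members, where 38.5% of all genes were related to it, 15.9% positively. Esrra was related to 3 of 6 where 52.1% of all genes were, Gabpa to 3 of 6 where 55.3% were, and Ppargc1b to 3 of 6 where 33.5% were. Ppargc1a was related to 2 of 6 (22.9%), Nrf1 to 2 of 6 (31.8%) and Tfam to 2 of 6 (32.7%).

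Cox5a reported how far each regulator went with a nuclear respiratory chain gene. Of the 7 members 4 were related to it, where 48.8% of all genes tested were. Esrra had r = 0.589 with Cox5a (limma adjusted p = 1.28e-42, permutation adjusted p = 4.37e-05, rho 0.558, 0.575 without the 2 farthest libraries), and only 0.271% of all genes had as high an r. Within blocks it was 0.315 in block 1, which missed the threshold (limma adjusted p = 0.0875), and 0.447 to 0.626 in the others. Perm1 had r = 0.385 (limma adjusted p = 1.35e-16, rho 0.347, 0.367), with 2.30% of genes as high, and 0.208 to 0.526 within blocks.

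The coactivators from the PGC-1 family were far weaker. Ppargc1b had r = 0.146 with Cox5a (limma adjusted p = 0.00440, rho 0.143, 0.138 without the 2 farthest), but -0.115 to 0.295 within blocks. Ppargc1a had r = -0.0260 (limma adjusted p = 0.671, rho -0.0351), with -0.246 to 0.119 within blocks. Nrf1 and Tfam were not called either, at -0.0486 (limma adjusted p = 0.402) and 0.0789 (0.149). Within blocks Nrf1 had -0.159 to -0.0424 and Tfam 0.0646 to 0.209. With block as a covariate Tfam was called at 0.142 (limma adjusted p = 0.00822).

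Gabpa was negatively related to Cox5a, at r = -0.190 (limma adjusted p = 0.000139, rho -0.191, -0.198 without the 2 farthest). Within blocks it was -0.186 to 0.0924, with block as a covariate -0.0470 (limma adjusted p = 0.446) and without block 1 -0.120 (0.0508). No member was called for a slope on Cox5a that differed between the sexes by limma (0 of 7, with 0.871% of all genes called). For Esrra the slope was 0.582 VST units per unit of Cox5a in females and 0.739 in males (difference 0.157, SE 0.0839, limma adjusted p = 0.476).

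**Figure D4:**
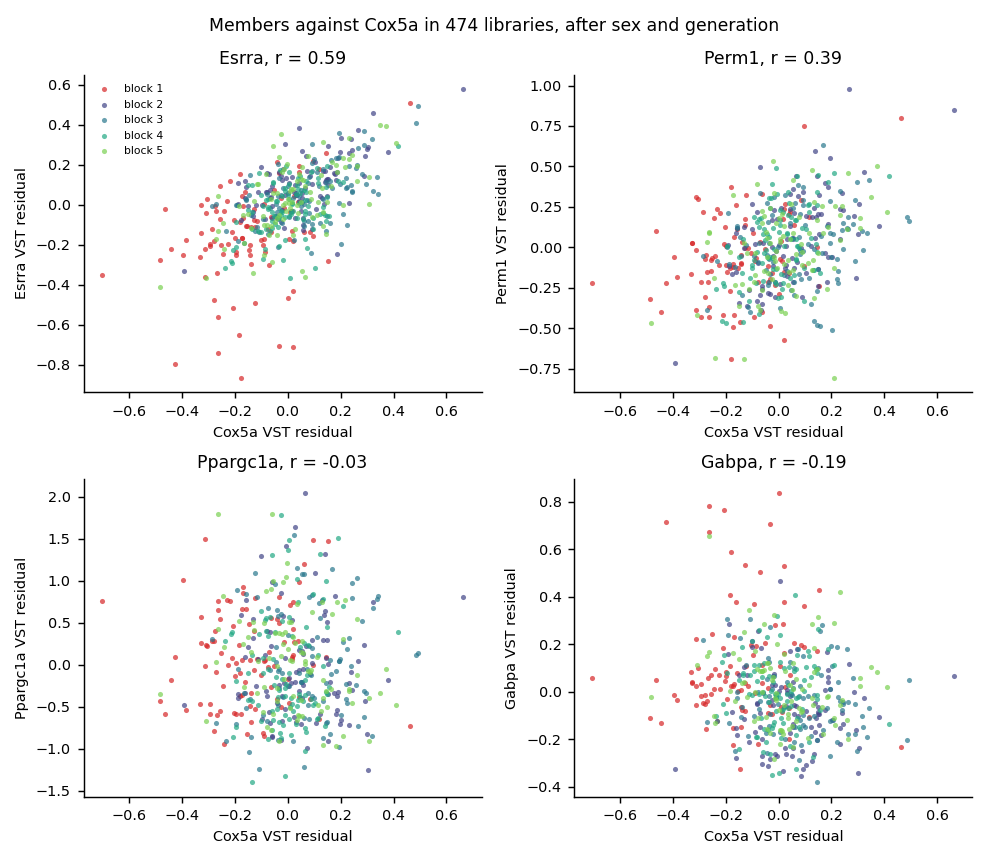
VST residuals after sex and generation of Esrra, Perm1, Ppargc1a and Gabpa (vertical axes) against those of Cox5a (horizontal axes), with 1 point per library coloured by block. Esrra (r = 0.589) and Perm1 (r = 0.385) rise with Cox5a, Gabpa (r = -0.190) is lower where Cox5a is higher, and Ppargc1a has r = -0.0260.

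Myh7 itself was lower in males, at a mean of 981.2 CPM (coefficient of variation 35.7%) against 1508 CPM (34.3%) in females, a log2 difference of -0.62 (SE 0.0446, edgeR adjusted p = 2.61e-35). Of the 7 members, Perm1 was related to it, at r = 0.201 (limma adjusted p = 0.000783, rho 0.176, 0.199 without the 2 farthest), where 6.04% of all genes tested were (3.42% positively and 2.62% negatively). The other 6 had r between -0.0114 and 0.0920 and were not called. Within blocks Perm1 had 0.0820 to 0.315 with Myh7, none called. Its slope was 0.171 in females and 0.0432 in males, a difference that missed the threshold (-0.128, SE 0.0470, limma adjusted p = 0.341). For slopes on Myh7 limma called 0 of 7 members between the sexes, with 0.0903% of all genes called.

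The nuclear genes of the respiratory chain and ATP synthase widened the view from Cox5a to 78 measured genes. Related positively to Esrra were 76 of the 78, with a median r of 0.464 against -0.0229 over all genes tested and 22.6% of all genes positive. Perm1 was close behind, with 75 of 78 and a median of 0.367 (15.9% of all genes). Ppargc1b had 61 of 78 and a median of 0.178 (16.7%). In each of these none of the 78 was negative. Without block 1 the positive counts were 75, 71 and 46, where 10.5%, 11.9% and 9.1% of all genes were positive.

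Ppargc1a was related to few of them, 1 positively and 4 negatively, with a median r of -0.0369, and without block 1 it had 1 and 0. Nrf1 had 23 positive and 6 negative, and without block 1 it had 0 positive and 8 negative. Tfam had 18 positive and 14 negative, and without block 1 it had 28 and 2. Gabpa had 6 positive and 54 negative with a median of -0.266, and without block 1 it had 2 and 29. Of all genes, 12.2% were positive and 10.7% negative for Ppargc1a, and 16.7% and 15.2% for Nrf1. For Tfam they were 14.8% and 17.9%, and for Gabpa 26.5% and 28.8%. Without block 1 these shares were 6.15% and 4.62% for Ppargc1a and 8.27% and 6.65% for Nrf1. They were 7.25% and 7.83% for Tfam, and 15.3% and 15.2% for Gabpa. The Nrf1 counts thus went from mostly positive to 0 positive and few negative without block 1, while those of Gabpa stayed mostly negative.

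**Figure D5:**
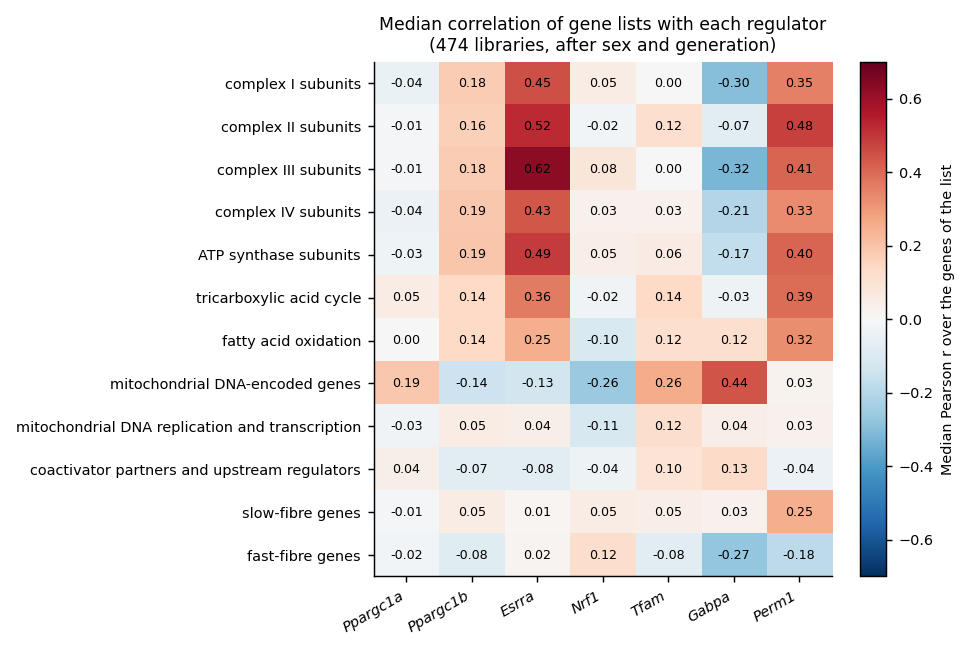
Median Pearson r of each of 12 fixed gene lists (rows) with each of the 7 genes (columns) over all libraries, as a colour scale from blue for negative to red for positive with the value in each cell. The nuclear respiratory chain lists are high for Esrra and Perm1, and the mitochondrial DNA-encoded list is high for Gabpa (0.438) and Tfam (0.260).

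The 13 protein-coding genes of mitochondrial DNA followed other members. Gabpa was positively related to 10 of 13, where 26.5% of all genes were, with a median r of 0.438 (mt-Nd4, a complex I subunit, 0.564, and mt-Nd5 0.546). Tfam was positively related to 10 of 13, with a median of 0.260 and mt-Nd4 at 0.324. Ppargc1a was positively related to 9 of 13, with a median of 0.191 and the complex IV subunit mt-Co1 highest at 0.226. None of the 13 was negative for these members. Over all genes, 14.8% were positive for Tfam and 12.2% for Ppargc1a. Without block 1 the counts of Gabpa, Tfam and Ppargc1a were 10, 9 and 9, and the median of Gabpa was 0.246. Of all genes, 15.3%, 7.25% and 6.15% were positive there. Ppargc1b was negatively related to 9 of 13 (median -0.145, 16.9% of all genes negative) and Nrf1 to 10 of 13 (median -0.261, 15.2%). Without block 1 these were 3 and 10 (10.2% and 6.65% of all genes negative). Esrra had 1 positive and 8 negative (22.6% and 29.5% of all genes). Without block 1, however, it had 5 positive and 0 negative (10.5% and 14.1%), with a median of 0.115. Perm1 had 2 positive (15.9% of all genes), and 8 without block 1 (11.9%). The higher share of mitochondrially encoded RNA in block 1 moved with these values, and its part in them was not tested.

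Genes that burn fatty acids were related to Perm1 throughout. All 20 measured fatty acid oxidation genes were positively related to Perm1, with a median r of 0.323, led by Acadvl, the very-long-chain acyl-CoA dehydrogenase, at 0.538 and Cpt1b, the muscle carnitine palmitoyltransferase, at 0.450. The lowest were Cd36, a fatty acid carrier, at 0.194 and Echs1 at 0.215. Esrra was positively related to 17 of 20 (Acadvl 0.474), Ppargc1b to 15 and Tfam to 11, with none negative. Of all genes, 15.9% were positive for Perm1, 22.6% for Esrra, 16.7% for Ppargc1b and 14.8% for Tfam. Without block 1 Perm1 had 20 (11.9% of all genes), Esrra 20 (10.5%), Ppargc1b 12 (9.1%) and Tfam 10 (7.25%). Nrf1 had 1 positive and 10 negative (16.7% and 15.2% of all genes), and 0 and 5 without block 1 (8.27% and 6.65%). Ppargc1a had 1 positive and 1 negative (12.2% and 10.7% of all genes), Cd36 at 0.146 and Etfb at -0.119. Neither was called without block 1. Of 18 tricarboxylic acid cycle genes Perm1 was positively related to 17 (Sdhc 0.544, Dlst 0.535), Esrra to 14 (Mdh2 0.636), Ppargc1b to 13 and Tfam to 10 (Dld 0.375). Without block 1 these were 18, 17, 8 and 12.

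Over all libraries, Tfam had the most positive relations to the machinery that copies and transcribes mitochondrial DNA, with 8 of 14 genes positive and 1 negative, where 14.8% and 17.9% of all genes were. Without block 1 it had 3 and 0 (7.25% and 7.83% of all genes), fewer than Gabpa. Tefm, the elongation factor of mitochondrial transcription, was highest at 0.260, and Polrmt, the mitochondrial RNA polymerase, was lowest at -0.230. Polrmt went the other way for Esrra, at 0.480, and Nrf1, at 0.212, and was at -0.502 for Gabpa. Nrf1 had 2 positive and 7 negative in this list (16.7% and 15.2% of all genes), and 0 and 5 without block 1 (8.27% and 6.65%). Gabpa had 5 and 5 (26.5% and 28.8%) and Esrra 4 and 4 (22.6% and 29.5%), close to the shares over all genes. Without block 1 Gabpa had 5 and 4 (15.3% and 15.2%) and Esrra 4 and 0 (10.5% and 14.1%).

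Among 30 partners and upstream regulators of the coactivators, Ppargc1a had 11 positive and 2 negative, where 12.2% and 10.7% of all genes were, and without block 1 it had 6 and 2 (6.15% and 4.62%). The highest were Hif1a, the oxygen-sensing factor, at 0.305 and Ppara, a nuclear receptor of fatty acid oxidation, at 0.30, and the lowest was the acetyltransferase gene Kat2a at -0.191. Ppargc1b had 8 positive and 12 negative (16.7% and 16.9% of all genes), and 2 and 6 without block 1 (9.10% and 10.2%), with the mitochondrial deacetylase gene Sirt3 at 0.318 and the deacetylase gene Sirt1, whose protein acts on PGC-1alpha, at -0.402. Perm1 had 7 positive and 10 negative (15.9% and 22.6% of all genes), with the related receptor Esrrb at 0.653, Sirt3 at 0.457 and the corepressor Nrip1 at -0.332. Esrra had Sirt3 at 0.581 and Esrrb at 0.381. Gabpa had 16 positive and 8 negative (26.5% and 28.8% of all genes), with the AMP-activated kinase subunit Prkaa1 at 0.595 and Tfeb at -0.535.

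Perm1 was also related to fibre-type genes. It was positively related to 9 of 9 slow-fibre genes, with a median of 0.254 (Myl3 0.321, Myl2 0.286), where 15.9% of all genes were. Of 12 fast-fibre genes 2 were positive, Myh2 (type IIa myosin, 0.477) and Myh1 (type IIx, 0.301). Another 8 were negative (22.6% of all genes), with Myh4 (type IIb) lowest at -0.335. For the other members between 0 and 2 slow-fibre genes were positive (12.2% to 26.5% of all genes). Gabpa had 9 of 12 fast-fibre genes negative (Actn3 -0.393, 28.8% of all genes), and 10 without block 1 (15.2%). Nrf1 had 8 positive (Atp2a1 0.281, 16.7% of all genes), and 4 without block 1 (8.27%). Esrra had 2 positive and 2 negative (22.6% and 29.5% of all genes), and 2 and 6 without block 1 (10.5% and 14.1%).

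Markers of other cells in the tissue also moved with the members. Perm1, Esrra and Tfam were each negatively related to 7 of 9 adipocyte markers and positively to none, with Cfd at -0.349 for Perm1. Of all genes, 22.6%, 29.5% and 17.9% were negative for these members. The summed level of the adipocyte markers ran from 633.8 to 3740 CPM over all libraries. Perm1 was positively related to 5 of 5 endothelial markers and Ppargc1b to 4 of 5 (Kdr 0.332 and 0.427), against 15.9% and 16.7% of all genes. The summed level of the endothelial markers ran from 145.97 to 310.67 CPM. Of 5 erythroid markers 4 were positively related to Perm1 and 3 to Esrra (15.9% and 22.6% of all genes). Without block 1 these were 3 and 0 (11.9% and 10.5%). With slow-fibre and adipocyte scores as covariates, positive nuclear respiratory chain genes numbered 75 of 78 for Perm1, 74 for Esrra and 60 for Ppargc1b. Of all genes, 14.5%, 23% and 17.3% were positive in that fit.

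The genes most like each member were taken by r over all libraries only. For Ppargc1a they were Flcn (0.586) and Fnip2 (0.577), whose products form the folliculin complex, Ern1 (0.569), a sensor of endoplasmic reticulum stress, Retreg1 (0.560) and the phosphate carrier gene Slc20a1 (0.554). The lowest was G0s2, an inhibitor of adipose lipase, at -0.431, then Zmym3 at -0.414 and Ahdc1 at -0.409. For Ppargc1b they were Mlxipl, the carbohydrate-response factor ChREBP, at 0.520, then Zfp710, Bcl9l, Rara and Cxxc5 (0.452 to 0.489), with the forkhead factor Foxo1 lowest at -0.544, then Lrrc58 and Sf3b1.

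Esrra had complex III and ATP synthase genes in all 5 places. Cyc1, cytochrome c1 of complex III, was at 0.757, then Atp5d at 0.718, Uqcrq at 0.700, Atp5g3 at 0.694 and Atp5g1 at 0.687. Its lowest were Pnisr, Dhx9 and Ssb, from -0.534 to -0.522, which encode proteins that bind RNA. Perm1 had Esrrb (0.653), Akap1 (0.648), a kinase anchor of the outer mitochondrial membrane, Ciapin1 (0.615), Ckmt2 (0.610), the muscle mitochondrial creatine kinase, and Zdhhc23 (0.606). Its lowest were Cdkn1b (-0.413), Cspp1 and Sort1.

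The values of Nrf1 were lower. Its highest were Pcif1 (0.375), Tcof1, Gtpbp1, Ranbp3 and Fam219a (0.362), and its lowest were Rrm2b (-0.380), Lum and Aspn. Tfam had its neighbour Ube2d1 (0.482), 0.0167 Mb away, then Grsf1 (0.401), an RNA-binding protein of mitochondria, Atad1 (0.401), Ado (0.396) and Mat2b (0.375). Its lowest, Cisd1 (-0.393), Cabin1 (-0.384) and Gpx4 (-0.381), lie on chromosome 10 with it, 0.0922, 4.41 and 8.81 Mb away. Gabpa had Qk (0.692), Smarca5, Top2b, Fcho2 and Ythdf3 (0.675), and its lowest were Snx17 (-0.626), Oaz1 and Rab1b. The share of all genes with r of at least 0.3 was 9.61% for Gabpa, 6.49% for Esrra, 2.54% for Perm1 and 0.563% to 0.701% for the other 4. Without block 1 this share was 3.25% for Gabpa, 1.84% for Esrra, 2.44% for Perm1 and 0.085% to 0.563% for the other 4.

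The start-site motifs were then set beside these relations. Of 65 nuclear respiratory chain genes with a window, 17 (26.2%) held the NRF1 motif, 5 (7.69%) the ETS motif, 2 (3.08%) the full ERR motif and 8 (12.3%) the ERR core, against 5.19%, 4.31%, 0.466% and 5.38% of all 27025 genes with a window. Of the 65, 64 were tested for relations, with r over all libraries only. For Gabpa the negative calls fell from 54 to 29 of 78 without block 1, and the medians by motif were not computed there. The 17 genes with the NRF1 motif had a median r of 0.0399 with Nrf1, and the 47 others 0.0598. The 5 genes with the ETS motif had a median of -0.327 with Gabpa, and the 59 others -0.267. The 8 genes with the ERR core, Atp5g3 among them, had a median of 0.512 with Esrra, and the 56 others 0.454. The ranges overlapped in each case, from 0.135 to 0.693 with the ERR core and from 0.0575 to 0.718 without.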

How the data were processed

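Polyadenylated RNA of skeletal muscle was sequenced. Per the study's methods, the authors pooled the mates of read pairs, aligned every mate alone to the transcriptomes of the founder strains, and estimated counts per gene with EMASE run by GBRS, so that a fragment can count more than once. The deposited expected counts (35.9 M to 165.7 M per library, 68.6% whole to within 1e-06) are not normalised. A further deposited table holds a score, the variance-stabilising transform of DESeq2, whose methods mention batch correction. Block still took 22.0% of the variance of Cox5a in it. Software versions and use of strand were not given in the sources used here. Of the gene positions, 99.2% equalled GENCODE M21, so the build was taken as GRCm38.

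Expected counts were rounded and fitted with edgeR 4.0.16 (TMM, filterByExpr with a minimum count of 10, quasi-likelihood F-test, Benjamini-Hochberg, threshold 0.05), with sex and generation as terms. Of 20612 genes 18823 were tested. Relations were fitted with limma 3.58.1 on the deposited score of the other 18822 genes, with sex and generation as covariates, and Pearson's r and Spearman's rho on residuals were tested by 100000 permutations (2-sided) in Python 3.11.15 with SciPy 1.17.1. All p-values measure the spread between single animals, and intervals of counting alone are smaller. Wave, a further covariate of the study, is not in the labels. Blocks were runs of library numbers begun anew after a gap of more than 3 or at 96 numbers. No pair of libraries agreed within sampling noise (lowest chi-square per gene 293.4 over 112101 pairs). DESeq2 1.42.0 served as an alternative. The scripts were tested on simulated data. Windows came from RefSeq GRCm38.p6.

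Named were the 7 members, Cox5a, Myh7, the 5 genes of highest and 3 of lowest r with each member (with no overlapping, Gm or Rik gene), and up to 4 genes per list, the 2 highest and 2 lowest. Members and lists were chosen with earlier results of these data known.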

Additional observations from a re-analysis of the deposited data

How the results depend on the processing

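Values of single genes and relations were recomputed under the alternatives, with counts over all genes of those called by sex, generation, interaction and block. Of all these, 747 stayed the same, 16 gained a call, 12 reversed and the rest lost their call or, for counts, fell. The same meant the same side of the threshold, or within 1.5 times for a count. For r of pairs without the 2 farthest libraries no p was computed. There the same meant that a called pair kept its sign, and uncalled pairs always passed. Of the 747, all but 74 kept their sign. Ranges over generations, interaction terms or blocks and counts of genes cannot be negative, so for them a kept sign carries no information. Those 74 were not called over all libraries, nor under the alternative where it gave a p. Splits into smaller sets of libraries gave the fewest calls. Of the 7 members, generations 17, 18, 21 and 23 alone called 2, 2, 3 and 3 between the sexes, and blocks 2 to 5 alone 3, 3, 2 and 3. For generation, each block alone called 0 members and males alone 1. With Cox5a, blocks 1 to 4 alone called 0, 2, 1 and 2 members. With Myh7, males alone and each block alone called 0, and the fit with no covariates 3. Between members, blocks 2 to 5 alone called 4, 2, 1 and 4 of 21 pairs, and limma called 2 members between blocks. Counts over all genes moved likewise: 10362 were called between the sexes over all libraries and 3708 to 5380 within single generations or blocks, 1423 between generations over all libraries and 54 to 540 within single blocks or sexes, and 100 by the interaction test of edgeR where limma called 0. Genes related to a member numbered 4306 to 10404 over all libraries, 2026 to 5737 without block 1 and 1 to 8658 within single blocks. Fewer libraries were fitted in each split, and other causes were not tested.

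Reversed values that were called over all libraries or under the alternative were the sex difference of Perm1 within block 2 (-0.0063). With Cox5a they were r of Ppargc1b within block 1 (-0.0624) and block 4 (-0.115) and of Gabpa within block 1 (0.0924). With Myh7 they were r of Esrra with no covariates (-0.174) and of Perm1 with slow-fibre and adipocyte scores as covariates (-0.199), the first of which holds Myh7 itself. Esrra and Gabpa reversed within blocks 2, 3, 4 and 5 (0.110, 0.0885, 0.228 and 0.0503) and without block 1 (0.0480), and Nrf1 and Gabpa within block 4 (0.0403). The omission of block 1 and block as a covariate for the gene lists were chosen after seeing the data. No paired analysis was possible because each animal gave 1 library and replicate numbers only count animals within a group. Groups held 45 to 50 libraries, so no single library was left out in turn. Poisson counting error at the median count of a member was at most 4.19%. It is a lower bound, since a fragment can count more than once, so it cannot show how far depth limited the values.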
